A study of Mus musculus with 2 samples.

Results

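The genes described here are 10 members of the insulin signalling and glucose uptake pathway: Insr, Igf1r, Irs1, Irs2, Grb14, Pik3r1, Akt2, Tbc1d4, Slc2a4 and Foxo1. They are 10 of the 56980 genes counted and were chosen by symbol. Their RNA was counted nucleus by nucleus in VAT, the visceral fat (gonadal depot) of female C57BL/6J mice aged 2 months, for which the labels name no treatment and no altered gene. The group, VAT young, holds 2 libraries, 1 from each of 2 mice, called replicate 1 and replicate 2. GEO's labels give 10x Genomics as the description and adipocytes as the cell type, whereas the protocol names a Singleron kit and the nuclei fall into several cell types.

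Insulin binds its receptor on the cell surface, and the activated receptor phosphorylates the IRS adaptor proteins. These recruit phosphoinositide 3-kinase (PI3K), whose lipid product brings the kinase AKT to the membrane. In adipocytes AKT2 phosphorylates TBC1D4 (AS160), which lets vesicles that carry the glucose transporter GLUT4 (Slc2a4) reach the surface, and AKT also keeps the transcription factor FOXO1 out of the nucleus. Fat is among the tissues in which insulin stimulates glucose uptake through GLUT4, and the closely related IGF1 receptor uses the same adaptors.

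After filtering, 15058 nuclei of 24492 called barcodes remained, 2833 in replicate 1 and 12225 in replicate 2, with medians of 2221 and 2726 UMIs per nucleus. A UMI is a unique molecular identifier and stands for 1 captured molecule. The libraries shared 85 called barcodes, and 27 barcodes among the nuclei kept. Clustering left out the 10 genes, all pathway lists used below and the genes of the study's paper. It gave 9 clusters, of which 8 were named from marker genes: adipocytes (6360 nuclei), mesothelial cells (2338), fibro-adipogenic progenitors (FAPs, 1566), immune cells (1406, 3 clusters), endothelial cells (586) and smooth muscle cells (173, of which 24 in replicate 1). An immune cluster of 74 nuclei also had 4 of 5 erythroid markers higher, and without it the same 3 members were called in immune nuclei. The mesothelial cluster had 10 of 11 mesothelial and 6 of 10 FAP markers higher. Within it, a subcluster of 802 nuclei had 0 of 11 mesothelial and 3 of 10 endothelial markers higher than the other mesothelial nuclei. The remaining 2629 nuclei stayed unnamed and entered no comparison. In the adipocyte cluster 8 of 10 adipocyte markers passed the naming rule, and Adipoq and Pnpla2 did not. RNA of adipocyte markers was present in every cell type: their summed level was 13816 to 18702 CPM (counts scaled to 1000000 per sum) in adipocytes and 3794 to 8212 in the other types, with all 10 markers detected in each. Adipocyte nuclei were the deepest, with median UMIs of 2914 and 5944 against 1638 to 2090.0 in the other named types.

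Promoter windows of 300 bases, from 250 before to 50 after the start of transcription, were taken from RefSeq (GRCm38.p6), in which 8 of the 10 genes had one. They are shown for the adaptor pair Irs1 and Irs2, of which Irs1 was called higher in adipocytes and Irs2 was not, for Igf1r, the only member called lower in adipocytes, and for Grb14, the only member that differed between the 2 adipocyte subclusters. Capitals mark matches, on either strand, to 4 motifs, none of which contains another: GGGCGG (the GC box), CACGTG (the core of the E-box), TGTTTAC (a forkhead sequence) and AGGTCA (a nuclear receptor element). All are written 5′ to 3′ along the gene: Irs1 at chr1:82291390-82291689 (minus strand), Irs2 at chr8:11008880-11009179 (minus), Igf1r at chr7:67952007-67952306 (plus) and Grb14 at chr2:65022717-65023016 (minus).
Irs1: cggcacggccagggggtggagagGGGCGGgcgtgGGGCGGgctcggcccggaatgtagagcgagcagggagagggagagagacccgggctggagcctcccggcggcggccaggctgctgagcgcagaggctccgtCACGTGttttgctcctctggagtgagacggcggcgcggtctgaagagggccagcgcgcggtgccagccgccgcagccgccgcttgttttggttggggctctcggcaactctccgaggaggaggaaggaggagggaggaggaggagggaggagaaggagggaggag
Irs2: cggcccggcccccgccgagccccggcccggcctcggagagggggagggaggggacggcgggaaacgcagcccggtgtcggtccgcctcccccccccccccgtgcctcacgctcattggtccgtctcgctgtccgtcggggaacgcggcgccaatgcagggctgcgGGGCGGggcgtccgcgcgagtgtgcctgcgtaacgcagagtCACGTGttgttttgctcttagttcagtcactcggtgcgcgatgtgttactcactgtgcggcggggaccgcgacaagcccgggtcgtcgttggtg
Igf1r: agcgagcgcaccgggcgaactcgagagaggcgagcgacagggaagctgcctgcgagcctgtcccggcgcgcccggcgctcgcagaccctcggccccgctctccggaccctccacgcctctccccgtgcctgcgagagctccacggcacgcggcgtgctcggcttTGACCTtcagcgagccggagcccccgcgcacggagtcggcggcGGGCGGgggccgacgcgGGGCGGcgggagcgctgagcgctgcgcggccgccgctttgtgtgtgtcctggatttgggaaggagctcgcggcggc
Grb14: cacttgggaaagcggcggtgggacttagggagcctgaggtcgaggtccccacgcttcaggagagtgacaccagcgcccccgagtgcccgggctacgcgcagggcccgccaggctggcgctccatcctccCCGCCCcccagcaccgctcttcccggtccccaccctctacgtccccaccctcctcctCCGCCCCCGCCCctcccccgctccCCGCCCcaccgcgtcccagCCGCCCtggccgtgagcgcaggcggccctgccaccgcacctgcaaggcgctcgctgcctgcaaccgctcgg

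The 4 windows hold 71.3%, 72.0%, 76.0% and 75.3% G and C, against a median of 52.7% over all windows of this length. CACGTG occurs 1 time each in Irs1 and Irs2, and in 7.15% of all windows. GGGCGG occurs 2 times in Irs1, 1 time in Irs2, 2 times in Igf1r and 5 times in Grb14, and in 35.6% of all windows. AGGTCA occurs 1 time in Igf1r (16.3% of all windows), and TGTTTAC in none of the 4 (3.65%).

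To learn which cell types carried the pathway, UMIs were summed per library and cell type. A type's level was set against the other 5 types' mean in 1 edgeR fit with the library as a block. For every type but adipocytes, that mean includes adipocytes, whose gap to the others enters the fold change. With the library as a block, p-values measure how unevenly differences between types repeat in the 2 libraries, 1 from each of 2 mice. A shift common to all types of a library is not part of that spread. The types compared come from the same mice. Of the 10 genes, 7 were higher in adipocytes: Insr, Irs1, Pik3r1, Akt2, Tbc1d4, Slc2a4 and Foxo1. Igf1r was lower there, and Irs2 and Grb14 did not pass the test. Over all 13883 genes tested, 31.0% were called higher and 30.1% lower in adipocytes (edgeR, adjusted p under 0.05), with a median log2 fold change of 0.083 over all genes and 1.51 over the 10. The 7 genes were also higher in adipocytes in each library taken alone. Levels below are normalised CPM, that is CPM after TMM scaling. TMM gives each sum 1 factor, on the assumption that most genes do not differ between sums. The factors ran from 0.744 in adipocytes of replicate 2 to 1.24 in smooth muscle of replicate 1. Without TMM factors the median adipocyte fold change of all genes fell by 0.49 on the log2 scale, and the share of higher genes among calls moved from 50.8% to 24.9% (32.0% with DESeq2). Under that scaling 6 of the 7 stayed called, and Foxo1 did not, while 13.4% of all genes were called higher.

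**Figure D1:**
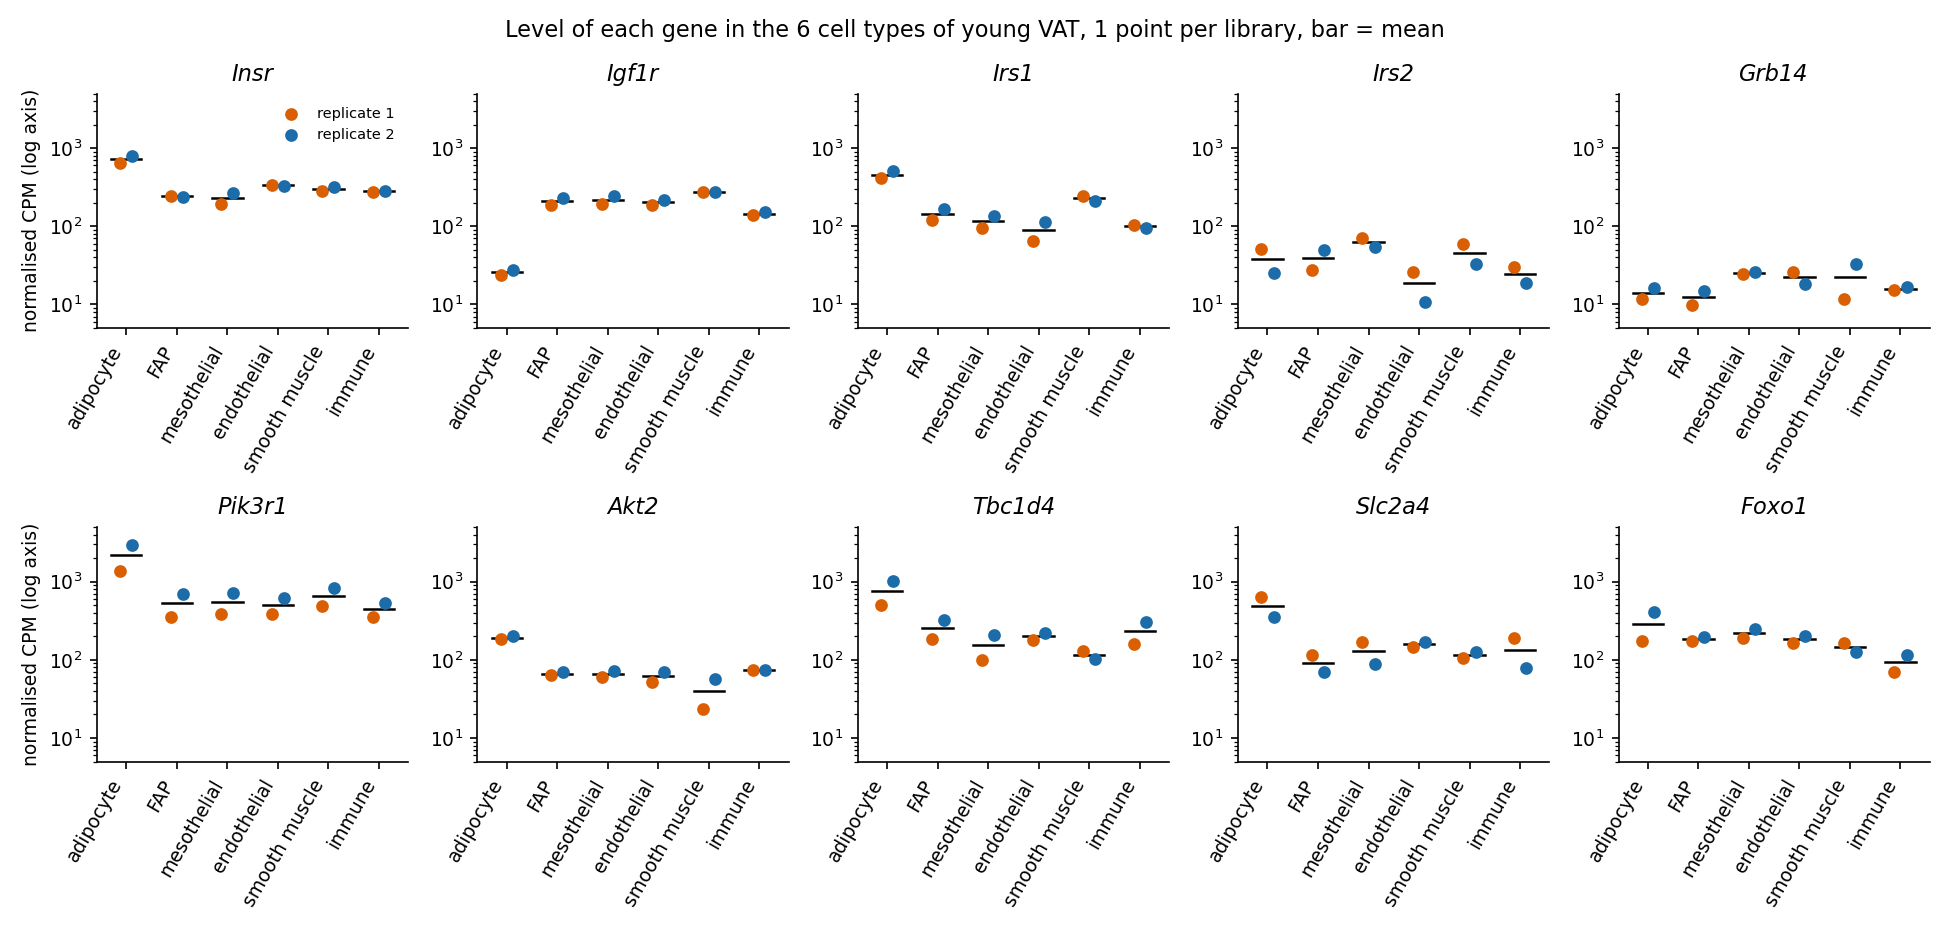
Level of each of the 10 genes, in normalised CPM on a log axis, in the 6 cell types; each point is 1 library and the bar is the mean of the 2. Adipocytes stand above the other types for Insr, Irs1, Pik3r1, Akt2, Tbc1d4 and Slc2a4 in both libraries, and below them for Igf1r, at 23.7 and 28.0.

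Insr encodes the insulin receptor (chr8:3172061-3329647 in GRCm39, minus strand). Its level in adipocytes was 652 normalised CPM in replicate 1 and 787 in replicate 2, from 2866 and 17421 UMIs. Means ± SD (n = 2 mice) of the other types were 336 ± 8.70 in endothelial nuclei, 299.9 ± 23.9 in smooth muscle nuclei, 281 ± 4.79 in immune nuclei, 241 ± 2.58 in FAPs and 228 ± 49.9 in mesothelial nuclei. No value outside adipocytes reached the lower of the adipocyte values. The log2 fold change in adipocytes was 1.39 ± 0.15 (SE, edgeR adjusted p = 2.30e-12). Next in order came endothelial nuclei, 1.11 ± 0.23 lower on the log2 scale (adjusted p = 4.17e-05), and no later neighbours in the order differed beyond their spread. Relative to the other types, adipocytes included, Insr was lower in FAPs (-0.51 ± 0.18) and mesothelial nuclei (-0.58 ± 0.18, edgeR adjusted p = 0.0432 and 0.0145).

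Igf1r, the receptor of insulin-like growth factor 1 (chr7:67601518-67883416, plus strand), had the opposite distribution. In adipocytes it stood at 23.7 and 28.0 normalised CPM, from 104 and 619 UMIs. Elsewhere it measured 271 ± 0.312 in smooth muscle nuclei, 220.2 ± 38.8 in mesothelial nuclei, 209 ± 33.1 in FAPs, 203 ± 20.2 in endothelial nuclei and 144 ± 8.85 in immune nuclei. The lowest value outside adipocytes, 138, was well above both adipocyte values. In adipocytes the log2 fold change was -2.98 ± 0.21 (edgeR adjusted p = 3.38e-20), and against the next type up, immune nuclei, the gap was 2.47 ± 0.24 (adjusted p = 2.92e-14). Igf1r was called higher in FAPs (0.64 ± 0.17), mesothelial (0.73 ± 0.17), endothelial (0.58 ± 0.19) and smooth muscle nuclei (1.04 ± 0.22). Each of these values is set against a mean that includes adipocytes. No neighbouring pair among these types and immune nuclei differed beyond its spread. After thinning every nucleus to 1000 UMIs, 1.8% (1.21 to 2.58%) and 2.17% (1.77 to 2.62%) of adipocyte nuclei held an Igf1r UMI (exact 95% interval), against 18.3% (13.6 to 23.7%) and 21.3% (19.6 to 23.1%) of mesothelial nuclei. Before thinning the shares in adipocytes were 5.10% (4.08 to 6.29%) and 9.87% (9.03 to 10.8%). These intervals cover counting error only.

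The ratio of Insr to Igf1r UMIs within a sum does not depend on the scaling between types. It was 27.6 and 28.1 in the adipocytes of replicates 1 and 2, and 1.00 to 2.01 in the 10 sums of the other types. Per kilobase of gene, the adipocyte ratio was 49.3 and 50.3. Adipocytes did not overlap any other type in this ratio, and the libraries were close to each other. In CPM without TMM scaling, Igf1r in the unnamed nuclei stood at 85.5 and 92.1 in the 2 libraries. Insr stood there at 344 and 390, from 229 and 1892 UMIs against 57 and 447 of Igf1r, and Slc2a4 at 398 and 208. The unnamed nuclei are not among the 10 sums.

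Irs1, the adaptor that links the receptor to PI3K (chr1:82210822-82269338, minus strand), reached 411 and 509 normalised CPM in adipocytes from 1805 and 11275 UMIs. The other types held 229 ± 27.0 in smooth muscle nuclei, 143 ± 30.4 in FAPs, 116 ± 28.2 in mesothelial nuclei, 99.7 ± 5.79 in immune nuclei and 89.2 ± 33.1 in endothelial nuclei. Both adipocyte values exceeded all others, and smooth muscle came next. Against the other types the log2 fold change was 1.85 ± 0.16 (edgeR adjusted p = 7.46e-17), and adipocytes differed from smooth muscle by 1.10 ± 0.27 (adjusted p = 8.13e-04). Irs1 was lower in endothelial (-0.89 ± 0.22) and immune nuclei (-0.84 ± 0.21, adjusted p = 0.00227 and 9.08e-04). Without the subclusters rich in adipocyte markers, described below, these values were -1.77 ± 0.31 and -1.70 ± 0.26.

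Irs2, the second main IRS adaptor (chr8:11034681-11059499, minus strand), was neither highest nor lowest in adipocytes. Adipocytes gave 51.4 and 25.2 normalised CPM. Against adipocytes within the libraries, mesothelial nuclei were higher (0.80 ± 0.30, edgeR adjusted p = 0.0215) and endothelial nuclei lower (-1.26 ± 0.44, adjusted p = 0.0171), and the remaining 3 types did not pass. Over all genes and all pairs of cell types 25.1% of tests were called. The order ran 63.1 ± 12.3 in mesothelial nuclei, 46.1 ± 18.2 in smooth muscle nuclei, 39.0 ± 15.7 in FAPs, 38.3 ± 18.6 in adipocytes, 24.4 ± 8.16 in immune nuclei and 18.6 ± 11.0 in endothelial nuclei, and none of the 5 neighbouring pairs differed beyond their spread. The adipocyte log2 fold change of 0.099 ± 0.25 did not pass (edgeR adjusted p = 0.761), and its sign turns without TMM factors (-0.38) and with DESeq2 (-0.18). Irs2 was higher in mesothelial nuclei (1.06 ± 0.25, adjusted p = 8.74e-04) and lower in endothelial nuclei (-1.41 ± 0.40, adjusted p = 0.00969), where 6 and 15 UMIs were counted. Irs1 outnumbered Irs2 by 7.99 and 20.2 UMIs to 1 in adipocytes and by 1.34 to 10.4 elsewhere. The ranges overlap in this case, through endothelial nuclei of replicate 2, although adipocytes had the highest ratio within each library.

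Grb14, an adaptor that inhibits the insulin receptor (chr2:64742812-64855331, minus strand), was the scarcest of the 10 per length in adipocytes after Igf1r. It measured 11.8 and 16.3 normalised CPM in adipocytes, from 52 and 362 UMIs, and 9.96 to 33.2 in the other types. Smooth muscle of replicate 1 held a single UMI. No neighbouring pair differed and no type passed the test. In adipocytes the log2 fold change was -0.44 ± 0.30 (edgeR adjusted p = 0.197). It was called lower there without TMM factors (-0.94, adjusted p = 0.00757) and with DESeq2 (-0.74, adjusted p = 0.0277).

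**Figure D2:**
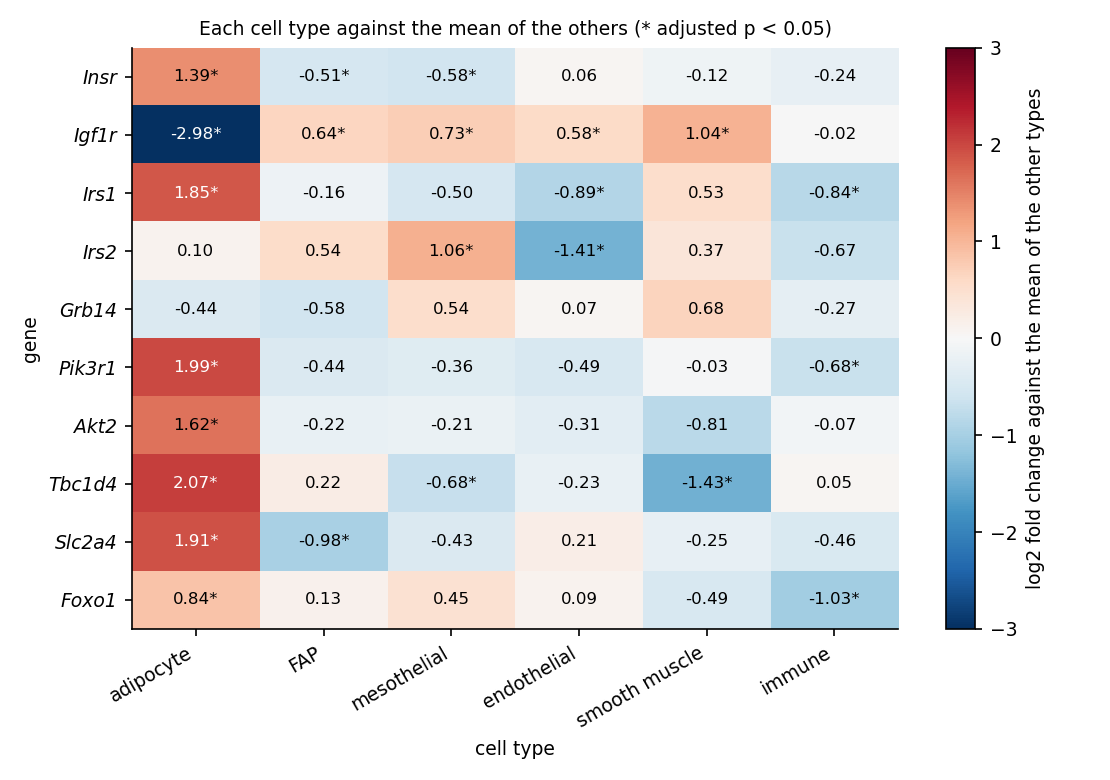
Log2 fold change of each gene in each cell type against the mean of the other 5, from edgeR; colour and printed value are the same quantity and an asterisk marks an adjusted p under 0.05. The adipocyte column holds 7 positive and 1 negative call, and the other columns hold 2 to 4 calls each.

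Pik3r1 encodes p85, the regulatory subunit of PI3K that docks on IRS proteins (chr13:101817071-101904725, minus strand). Its adipocyte level was 1374 and 2980.2 normalised CPM, from 6038 and 65988 UMIs. The other types held 662 ± 252 in smooth muscle nuclei, 547 ± 228 in mesothelial nuclei, 527 ± 252 in FAPs, 504 ± 166 in endothelial nuclei and 447 ± 132 in immune nuclei. Replicate 2 was the higher library in all 6 types, and the lower adipocyte value was still above every value outside adipocytes. The log2 fold change was 1.99 ± 0.15 (edgeR adjusted p = 4.73e-19), and adipocytes exceeded smooth muscle, the next type, by 1.68 ± 0.24 (adjusted p = 3.50e-08). In immune nuclei Pik3r1 was lower (-0.68 ± 0.19, adjusted p = 0.00307).

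Akt2, the AKT isoform tied to insulin-stimulated glucose uptake (chr7:27284378-27340262, plus strand), stood at 186 and 199 normalised CPM in adipocytes and at 23.6 to 73.7 in the other types. In order these were 73.7 ± 0.0471 in immune nuclei, 66.8 ± 4.31 in FAPs, 66.4 ± 8.44 in mesothelial nuclei, 61.3 ± 12.3 in endothelial nuclei and 39.9 ± 23.1 in smooth muscle nuclei. The log2 fold change in adipocytes was 1.62 ± 0.17 (edgeR adjusted p = 1.02e-12), and no other type passed the test.

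**Figure D3:**
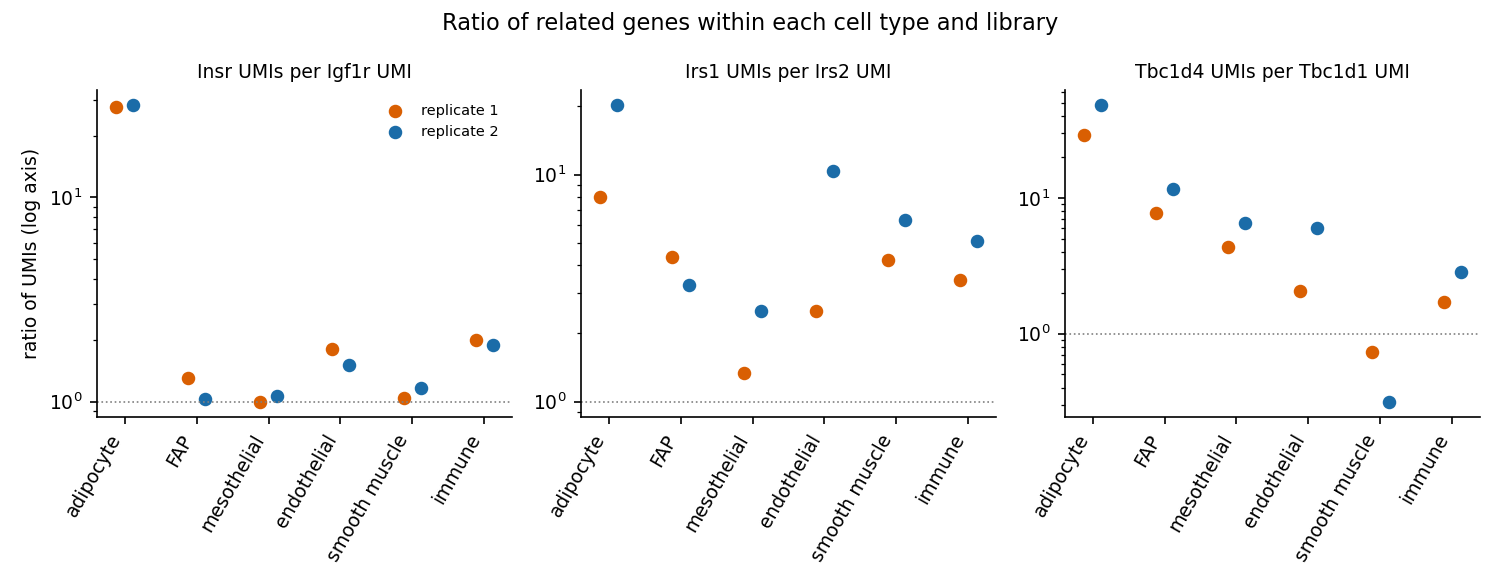
UMIs of a gene per UMI of its relative, on a log axis, in each cell type and library (1 point each); the dotted line marks a ratio of 1. Adipocytes stand apart for Insr to Igf1r (27.6 and 28.1) and Tbc1d4 to Tbc1d1 (29.1 and 48.1), and overlap the other types for Irs1 to Irs2.

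Tbc1d4 encodes AS160, the GTPase-activating protein that holds GLUT4 vesicles inside the cell until AKT phosphorylates it (chr14:101679135-101846739, minus strand). It measured 509.8 and 1010.0 normalised CPM in adipocytes, from 2240 and 22363 UMIs. Below them came 256 ± 101 in FAPs, 234 ± 104 in immune nuclei, 201 ± 30 in endothelial nuclei, 152 ± 76.7 in mesothelial nuclei and 116 ± 19.5 in smooth muscle nuclei. Its log2 fold change in adipocytes was 2.07 ± 0.16 (edgeR adjusted p = 9.51e-19). Tbc1d4 was lower in smooth muscle (-1.43 ± 0.28) and mesothelial nuclei (-0.68 ± 0.20, adjusted p = 1.18e-04 and 0.00799). Without the subclusters rich in adipocyte markers, Tbc1d4 stood at -0.96 ± 0.30 and -1.44 ± 0.23 there. Its paralogue Tbc1d1, which has the same role in muscle, was lower in adipocytes (-1.70 ± 0.24). There were 29.1 and 48.1 Tbc1d4 UMIs per Tbc1d1 UMI in adipocytes, 7.75 and 11.6 in FAPs and 0.733 and 0.315 in smooth muscle nuclei.

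Slc2a4 encodes GLUT4 itself (chr11:69831006-69839070, minus strand). In adipocytes its level was 636 and 351 normalised CPM, from 2795 and 7765 UMIs, and the other types held 158 ± 18.6 in endothelial nuclei, 129.9 ± 56.9 in mesothelial nuclei, 134 ± 77.9 in immune nuclei, 117 ± 15.3 in smooth muscle nuclei and 92.3 ± 32.9 in FAPs. Both adipocyte values lay above all others, which did not exceed 189. In the order used for neighbouring pairs mesothelial nuclei came before immune nuclei, although their mean was slightly lower. The place of endothelial nuclei in this order rests on 1 subcluster with all 10 adipocyte markers higher: endothelial nuclei stood at 30 and 70.5% of the adipocyte CPM with it and at 11.7 and 17.6% without it. In adipocytes Slc2a4 had a log2 fold change of 1.91 ± 0.16 (edgeR adjusted p = 1.52e-16). FAPs were lower than the mean of the other types, adipocytes included (-0.98 ± 0.21, adjusted p = 2.75e-04). A Slc2a4 UMI was found in 65.2% (62.8 to 67.5%) and 67.9% (66.6 to 69.2%) of adipocyte nuclei, and in 21.5% (16.6 to 27.0%) and 13.9% (12 to 16%) of immune nuclei, with median depths as given above. Immune nuclei were taken as the background, and whether they express Slc2a4 was not tested. After thinning to 1000 UMIs the shares were 35.2% (32.8 to 37.5%) and 21.7% (20.5 to 22.9%) in adipocytes and 15.2% (11.1 to 20.2%) and 6.43% (5.09 to 8.01%) in immune nuclei. Mesothelial nuclei, at 15.4% (11.0 to 20.5%) and 6.53% (5.51 to 7.68%) after thinning, were not above that background. Both types also held a subcluster with all 10 adipocyte markers higher. With it, Slc2a4 stood at 37.4 and 33.9% of the adipocyte CPM in immune nuclei and at 32.2 and 36.2% in mesothelial nuclei. Without it, the values were 19.6 and 20.1% in immune nuclei and 22.3 and 18.8% in mesothelial nuclei. Slc2a1, the basal transporter GLUT1, was lower in adipocytes (-1.20 ± 0.36), with 54.8 and 54.7 Slc2a4 UMIs per Slc2a1 UMI there and 1.43 to 13.9 in the 9 sums of other types that held a Slc2a1 UMI.

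Foxo1, the transcription factor that AKT inhibits (chr3:52175757-52260642, plus strand), had the smallest adipocyte fold change of the 7. It measured 175 and 403 normalised CPM in adipocytes, and 222 ± 40.9 in mesothelial nuclei, 186 ± 17.3 in FAPs, 183 ± 29.1 in endothelial nuclei, 146 ± 26.4 in smooth muscle nuclei and 93.4 ± 33.3 in immune nuclei. The adipocyte value of replicate 1 was within the range of the other types, and only that of replicate 2 was above it. The log2 fold change in adipocytes was 0.84 ± 0.17 (edgeR adjusted p = 2.16e-05), with 0.27 in replicate 1 and 1.22 in replicate 2, but it does not pass without TMM factors (0.34, adjusted p = 0.108) or with DESeq2 (0.53, adjusted p = 0.0534). Mesothelial nuclei, the next type, were not shown to differ from adipocytes (0.33 ± 0.23, adjusted p = 0.226). Immune nuclei were lower than the rest (-1.03 ± 0.21, adjusted p = 7.53e-05).

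Across the 10 genes, 7 of 50 neighbouring pairs in these orders passed the test, and each of the 7 was the step between adipocytes and the nearest other type. Over all genes tested, 10.2% of neighbouring pairs in each gene's own order were called. Outside adipocytes, and against means that include them, 3 genes were called in FAPs, 4 in mesothelial, 3 in endothelial, 2 in smooth muscle and 3 in immune nuclei. The shares of all genes called there in either direction were 16.3%, 19.2%, 12.3%, 8.98% and 24.7%. These calls rest on the library block: without it 0, 0, 0, 1 and 1 passed in the same order, and the shares of all genes called fell to 8.07%, 9.56%, 5.58%, 4.32% and 14.3%. With a mitochondrial limit of 5%, which left too few smooth muscle nuclei for a sum, 8 genes were called in endothelial and 2 in mesothelial nuclei, where 41.6% and 8.92% of all genes were called.

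The values outside adipocytes were set beside those of the 10 adipocyte markers, as a percent of each gene's adipocyte CPM in the same library. Outside adipocytes the median marker stood at 26.7 to 63.5% of its adipocyte level. Pik3r1 stood at 27.4 to 57.0%, Slc2a4 at 21.7 to 70.5%, Akt2 at 20.5 to 55.9% and Insr at 35.6 to 70.3%. These were within the range spanned by the markers in 8, 8, 9 and 7 of the 10 sums. Igf1r, at 734 to 1857%, was above that range in all 10, and Grb14 in 9, Irs2 in 8 and Foxo1 in 7 of 10. Irs1 was above it in 3 sums and below it in 2, and Tbc1d4 above it in 2 and below it in 2. A single subcluster in each of FAPs, mesothelial, endothelial and immune nuclei had all 10 adipocyte markers higher than the other subclusters of its type. Their mean doublet scores (Scrublet) were 0.271, 0.276, 0.127 and 0.235 in this order, against 0.0453 to 0.119 in the other subclusters of these types. Scrublet called 1 doublet in each library and so had not worked, and whether these subclusters hold doublets was not tested. With the marker-rich subclusters left out, a choice made after seeing the data, the median marker stood at 12.3 to 32.0%, Pik3r1 at 13.5 to 57.0% and Slc2a4 at 11.7 to 54.3%, and Insr, at 26.1 to 70.3%, was above the markers in 7 of 10 sums and Foxo1 in 9. No smooth muscle nuclei were removed by this step, and the upper ends for Insr, Pik3r1 and Slc2a4 are smooth muscle sums. In the larger smooth muscle subcluster (137 of 173 nuclei) 6 of 10 adipocyte markers were higher. The adipocyte log2 fold changes then rose to 2.76 ± 0.17 for Slc2a4, 2.59 ± 0.17 for Irs1 and 2.58 ± 0.17 for Pik3r1, and 13 of 50 neighbouring pairs passed, beside 13.1% of such pairs over all genes. In endothelial nuclei 5 genes were then called in place of 3, with Slc2a4 (-1.10 ± 0.30) and Pik3r1 (-0.90 ± 0.24) added as lower, while the share of all genes called there was 17.5%. In mesothelial nuclei 6 were called in place of 4, with Foxo1 (0.56 ± 0.20, edgeR adjusted p = 0.0321) added as higher and Pik3r1 (-0.56 ± 0.21, adjusted p = 0.0425) as lower. Irs1 in smooth muscle (1.23 ± 0.25) and Slc2a4 in immune nuclei (-0.64 ± 0.23) were also added, which gave 3 and 4 calls there, beside 25.8%, 7.89% and 32.0% of all genes in mesothelial, smooth muscle and immune nuclei. How much of the remaining level is RNA from other nuclei was not tested.

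**Figure D4:**
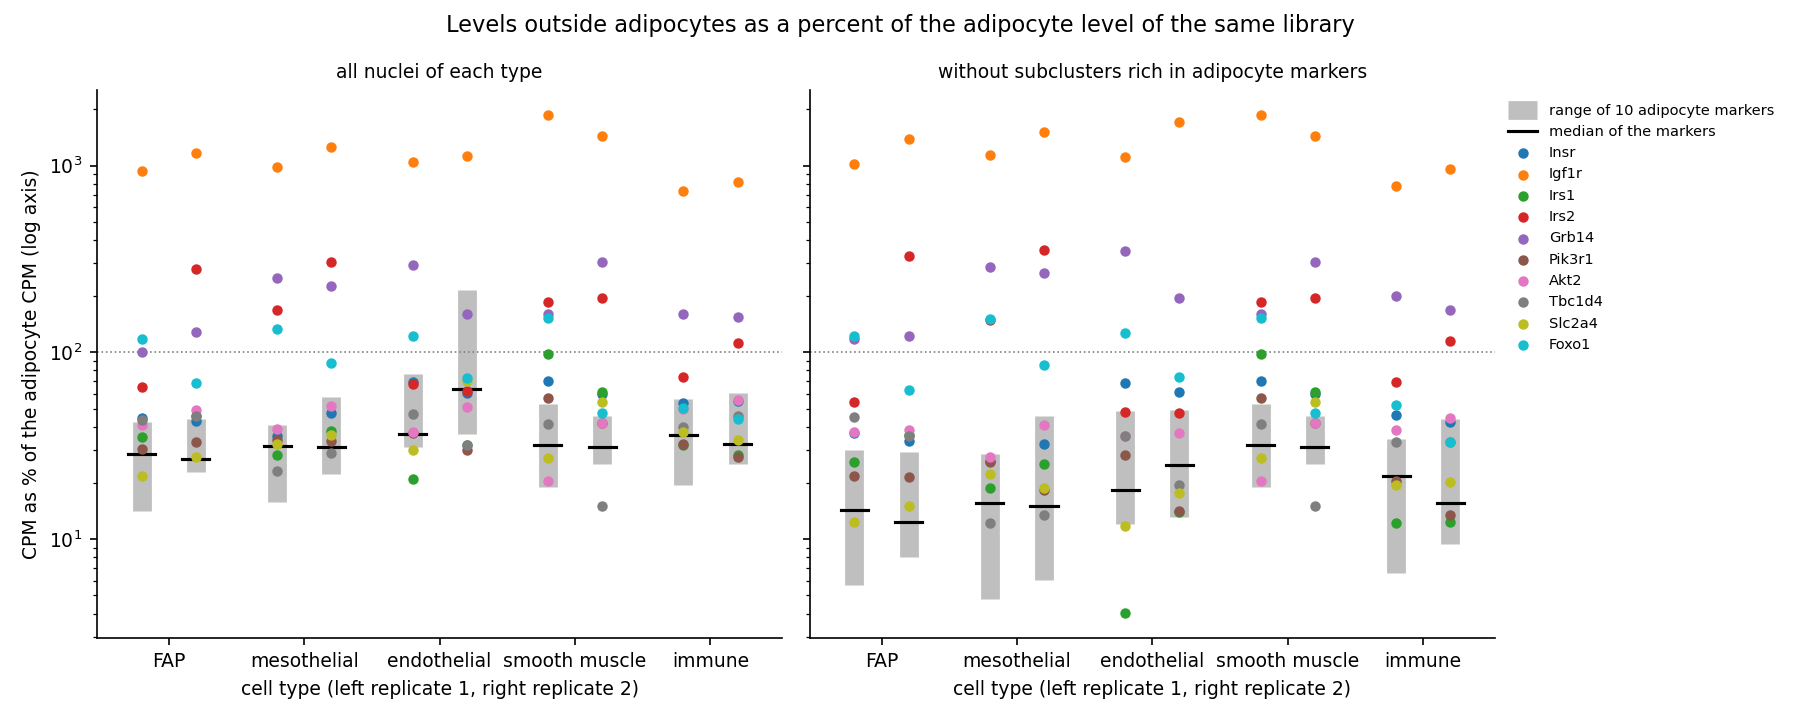
Level of each gene outside adipocytes as a percent of its adipocyte level in the same library, from CPM without TMM scaling, on a log axis; grey bars give the range and black lines the median of the 10 adipocyte markers, for all nuclei (left) and without the subclusters rich in those markers (right). Igf1r lies between 734 and 1857% in the left panel, while Pik3r1 and Slc2a4 fall within most grey bars.

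The libraries did not differ alike for all 10 genes. In adipocytes the shortest genes were lower in replicate 2: Slc2a4 (8.06 kb) had a replicate 2 to replicate 1 ratio of 0.535 in CPM, and Irs2 (24.8 kb) of 0.476. The other 8, of 55.9 to 282 kb, had ratios of 1.04 to 2.24, with Foxo1, Pik3r1 and Tbc1d4 (2.24, 2.11 and 1.92) at the top. Replicate 1 also had the larger mitochondrial share, with a median of 6.2% against 0.621%. Its part in these ratios was not tested. Per kilobase of gene, the adipocyte levels in CPM without TMM scaling were highest for Slc2a4 (59.6 and 31.9) and Pik3r1 (11.9 and 25) and lowest for Igf1r (0.0635 and 0.0728) and Grb14 (0.0795 and 0.107).

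The genes whose pattern over the 12 sums was most like each member were found by Pearson's r of library-centred log2 CPM, over 2 libraries of 6 cell types that share depth and composition within a library. For Igf1r they included Pdlim1 and Aig1 (0.954 and 0.946). For Slc2a4 they were Lipe, Mrap and Insig1 (0.973 to 0.979), among them the hormone-sensitive lipase Lipe, and for Insr Psmd11, Pparg and Ccnl2 (0.970 to 0.972), among them Pparg, the transcription factor of adipocyte differentiation. The other genes gave Parp6, Auh and Dcaf1 (0.960 to 0.965) for Irs1, Vwa8, Luc7l2 and Taok1 (0.984 to 0.989) for Pik3r1, Dhx32, Neat1 and Galnt2 (0.976 to 0.984) for Akt2, Yy1, Vps41 and Abca1 (0.944 to 0.961) for Tbc1d4 and Crebbp, Sash1 and 2610008E11Rik (0.907 to 0.930) for Foxo1. Likeness was weaker for Irs2, with Asrgl1, Zbtb7c and Fbf1 (0.822 to 0.841), and Grb14, with Mras, Lrrc42 and Agrn (0.839 to 0.870). Lipe and Pparg are also among the markers that named the adipocytes.

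Beyond the 10, 129 genes of 7 pathway lists were examined, and 119 were tested. In adipocytes 60 were higher, 24 lower and 35 not called, beside the background shares of 31.0% and 30.1%. Without TMM factors 44 were higher and 32 lower, where 13.4% and 40.4% of all genes were called. With DESeq2 the counts were 49 and 29, beside 16.9% and 35.9%.

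Among ligands and binding proteins, 2 of 9 tested were higher in adipocytes and 6 lower. Igf1, the growth factor that IGF1R binds, was higher (1.19 ± 0.16, 669 and 666 normalised CPM), as was Ide, the insulin-degrading enzyme (1.02 ± 0.18). The IGF-binding proteins Igfbp3 (-3.37 ± 0.34), Igfbp5 (-2.88 ± 0.27) and Igfbp6 (-2.53 ± 0.27) were the furthest down, with Igfbp6 at -1.60 in replicate 1 and -2.88 in replicate 2. The list's median log2 fold change was -1.25 in adipocytes and 1.73 in mesothelial nuclei, where 6 of 9 were higher and 1 lower. Over all genes the median in mesothelial nuclei was 0.013, and 19.2% were called there in either direction (9.56% without the library block).

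Of 20 receptor adaptors and inhibitors, 6 were higher and 4 lower, beside 31.0% and 30.1% of all genes. The list's median log2 fold change was 0.17, against 0.083 over all genes. Sh2b2 (APS), an adaptor of the insulin receptor (2.48 ± 0.17), Prkce, a protein kinase C (2.07 ± 0.15), and Grb7 (1.93 ± 0.44) led upward, Grb7 with a difference of 3.87 in replicate 1 and 1.15 in replicate 2. Socs3, a cytokine-induced inhibitor (-3.09 ± 0.61), Dok1 (-2.30 ± 0.76) and Prkcq (-2.11 ± 0.39) led downward, all at under 5 normalised CPM in adipocytes, and the difference of Prkcq was -0.67 in replicate 1 and -2.17 in replicate 2. Of 20 PI3K and AKT genes, 7 were higher and 7 lower, shares close to those of all genes, against 4 and 8 without TMM factors and 5 and 7 with DESeq2. The catalytic subunit Pik3cb (1.92 ± 0.16) and Mtor (1.31 ± 0.18) were among the higher genes, and Inpp5d (-2.29 ± 0.29) and Pik3cd (-1.99 ± 0.39), both typical of blood cells, among the lower. The adipocyte difference of Pik3cd was 0.54 in replicate 1 and -2.56 in replicate 2, so that the libraries went opposite ways, and it was not called with DESeq2.

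The GLUT4 traffic list had 14 of 24 genes higher and 2 lower. Ralgapa2, a subunit of the Ral GTPase-activating complex (2.52 ± 0.15), and Trarg1, a protein of GLUT4 vesicles (1.96 ± 0.16), were among the higher genes, and Clip3 (-2.48 ± 0.43) and Tbc1d1 were lower. Without TMM factors 7 were higher and 6 lower, and with DESeq2 8 and 5, under the shift of all genes given above, with which the sign of Lnpep turned. Of 7 other glucose transporters, Slc2a5, a fructose transporter (1.75 ± 0.21), and Slc2a13, a myo-inositol transporter (1.42 ± 0.17), were higher, and Slc2a10 (-2.03 ± 0.54) and Slc2a1 lower. These shares were close to those of all genes, 31.0% and 30.1%, and the list's median was 0.11 against 0.083.

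Glucose use was the list with the largest share of higher genes: 18 of 23 were higher and 1 lower, with a median log2 fold change of 1.22 against 0.083 over all genes. Without TMM factors the counts were 18 and 1 as well, and with DESeq2 18 and 2. Hk2, the insulin-responsive hexokinase (2.23 ± 0.15, 889.7 and 743 normalised CPM), Gys1, glycogen synthase (2.09 ± 0.18), and Pygl, a glycogen phosphorylase (2.09 ± 0.15), led. Gys1 differed by 3.35 in replicate 1 and 2.04 in replicate 2. Hk1 was the lower gene (-2.48 ± 0.29, 5.69 and 8.76 normalised CPM). Of 16 genes of the FOXO and mTORC1 outputs, 11 were higher and 2 lower, against 6 and 3 without TMM factors and 8 and 3 with DESeq2. Pde3b, the phosphodiesterase through which insulin restrains lipolysis (2.48 ± 0.15), Mlxipl, the glucose-sensing factor ChREBP (2.26 ± 0.15), and Lpin1 (2.24 ± 0.15) led, and Sgk1 (-2.41 ± 0.27) and Foxo3 (-0.64 ± 0.20) were lower. The sign of Rheb also turned with the shift of all genes without TMM factors.

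Adipocytes divided into 2 subclusters at resolution 0.1, drawn without the 10 genes, the pathway lists and the paper's genes. They still came from the same nuclei, so that p-values describe the separation of these nuclei. Subcluster 1 held 1463 and 4082 nuclei and subcluster 2 held 144 and 671, with all 8 thermogenic markers higher in subcluster 2, Ucp1 and Cidea among them. Subcluster 2 was also deeper, with median UMIs of 4229 and 7461 against 2810.0 and 5708. Of the 10 genes, 1 was called higher in subcluster 2 and 0 lower by edgeR. Over the 14242 genes tested, 5.03% were called higher and 3.78% lower.

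The gene was Grb14. It stood at 38.7 and 30.9 normalised CPM in subcluster 2 and at 5.26 and 7.89 in subcluster 1, from 26 and 159 UMIs against 26 and 203. Both subcluster 2 values were above both subcluster 1 values. This was a log2 fold change of 2.24 ± 0.28 (edgeR adjusted p = 3.03e-13). A Grb14 UMI was found in 11.1% (6.49 to 17.4%) and 13.6% (11.1 to 16.4%) of subcluster 2 nuclei and in 1.37% (0.837 to 2.10%) and 3.23% (2.71 to 3.82%) of subcluster 1 nuclei. Thinned to 1000 UMIs, the shares were 3.47% (1.14 to 7.92%) and 1.94% (1.04 to 3.29%) against 0.547% (0.236 to 1.07%) and 0.931% (0.660 to 1.28%). The call is lost without the replicate block (log2 fold change 2.34, adjusted p = 0.0687) and after thinning (1.26, adjusted p = 0.159), which left 5 and 14 Grb14 UMIs in subcluster 2.

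No difference passed for the receptors and the uptake genes. Insr stood at 429 and 560.3 normalised CPM in subcluster 2 and 521 and 565 in subcluster 1, a log2 difference of -0.14 ± 0.14. For Slc2a4 the values were 612 and 263 against 482 and 249 (0.21 ± 0.14), and for Tbc1d4 481 and 579.5 against 387 and 753 (-0.058 ± 0.14). Igf1r (0.62 ± 0.25) and Irs2 (-0.63 ± 0.26) did not pass (adjusted p = 0.124 and 0.117). With nuclei thinned to equal depth their log2 differences were 0.32 and 0.086, so that the sign of Irs2 turned. Among the other pathway genes 13 of 116 tested were higher in subcluster 2 and 8 lower, beside 5.03% and 3.78% of all genes. Of 23 glucose use genes tested, 9 were higher and 0 lower. They were led by Pdk4, the kinase that blocks pyruvate dehydrogenase (2.10 ± 0.18), and Pgk1 (1.03 ± 0.28). Slc2a13 (-2.17 ± 0.18) and the phosphatase Ptprf (-1.43 ± 0.42) were the furthest down. With DESeq2 the counts were 7 and 3, beside 2.14% and 1.53% of all genes, and without the replicate block 1 and 1, beside 0.183% and 0.0702%.

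At resolution 0.3 the adipocytes formed 3 subclusters of at least 20 nuclei per library. Subcluster 3 was the thermogenic one (8 of 8 markers higher), subcluster 2 had 7 of 8 lipogenic markers higher, Fasn and Acly among them, and subcluster 1 had 5 of 8 lower. Their median UMIs were 2534 and 5405 in subcluster 1, 4126 and 6959 in subcluster 2 and 3953 and 7350.0 in subcluster 3. Each was tested against the average of the remaining 2 over 14310 genes, of which 8.61%, 6.14% and 10.2% were called in either direction for subclusters 1, 2 and 3. Of the 10 genes 2, 4 and 2 were called.

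Slc2a4 was highest in the lipogenic subcluster 2, at 679 and 324 normalised CPM, against 391 and 215 in subcluster 1 and 606 and 258 in subcluster 3. In both libraries the order was 2, 3, 1. It was higher in subcluster 2 (0.47 ± 0.12, edgeR adjusted p = 0.00317) and lower in subcluster 1 (-0.56 ± 0.12, adjusted p = 2.23e-04). Akt2 was also higher in subcluster 2 (0.61 ± 0.12, adjusted p = 1.38e-04), at 192 and 191 normalised CPM against 126 and 128 and 138 and 117 in subclusters 1 and 3. Irs2 went the other way, higher in subcluster 1 (0.99 ± 0.19, adjusted p = 4.08e-05), with 55.2 and 21.6 normalised CPM there and 15.9 and 14.6 in subcluster 2. Grb14 was lower in subcluster 2 (-2.12 ± 0.32), from 7 and 29 UMIs, and higher in subcluster 3 (2.71 ± 0.26). Igf1r was lower in subcluster 2 (-0.67 ± 0.22, adjusted p = 0.0436) and higher in subcluster 3 (0.68 ± 0.22, adjusted p = 0.0264). Insr, Irs1, Pik3r1, Tbc1d4 and Foxo1 were called in none of the 3. As alternatives added after seeing the data, these tests were rerun without the library block, by DESeq2 and with thinned nuclei. Without the block 0, 0 and 1 of the 10 genes were called, the last being Grb14 in subcluster 3 (2.77, edgeR adjusted p = 0.0161), while 0, 0 and 0.615% of all genes were called. After thinning, Slc2a4 in subclusters 1 and 2, Akt2 in subcluster 2 and Grb14 in subcluster 3 (1.79, adjusted p = 0.0142) were called, and Irs2 in subcluster 1 (0.39), Grb14 in subcluster 2 (-1.70) and Igf1r in subclusters 2 and 3 were not. Igf1r was not called by DESeq2 either.

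**Figure D5:**
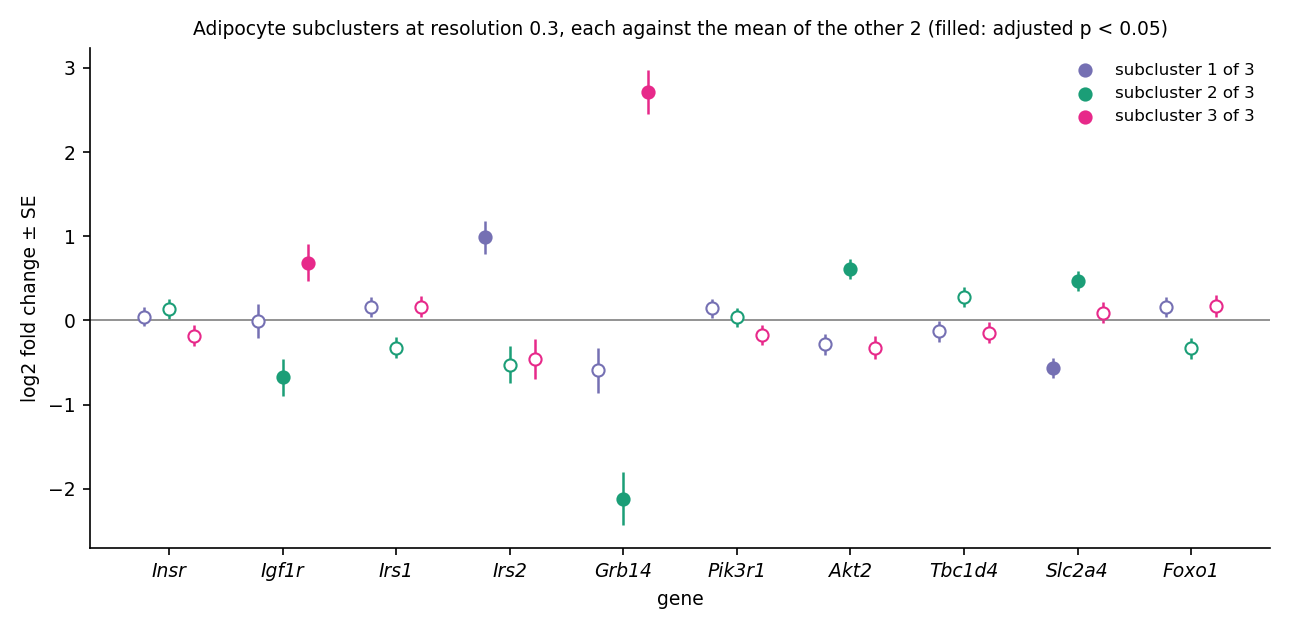
Log2 fold change ± SE of the 10 genes in each of the 3 adipocyte subclusters against the mean of the other 2; filled points have an edgeR adjusted p under 0.05. Grb14 spans the widest range, from -2.12 in subcluster 2 to 2.71 in subcluster 3, and Slc2a4 and Irs2 point in opposite directions in subcluster 1.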

How the data were processed

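Nuclei of VAT from 2 mice were captured and their libraries built with a Singleron GEXSCOPE kit. The authors deposited raw UMI counts per gene and called barcode, aligned to GRCm39 with CeleScope (version and annotation not given in the sources used here), 1 table per library. Barcode totals and saturation tables were not used, and libraries beyond these 2 were not analysed here. The members and gene lists were chosen with earlier results of these data known.

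Nuclei with more than 500 genes, more than 1000 UMIs and under 15% mitochondrial UMIs were kept, which gave 8466237 and 48068273 UMIs in replicates 1 and 2. Clusters were built with scanpy 1.11.5 and leidenalg 0.10.2 on 1000 variable genes, without the members, the pathway lists and the genes of the study's paper. The settings were 30 principal components (16 for subclusters), an implementation of Harmony written for these data, 20 neighbours and resolution 0.1. A cluster was named where at least 3 markers, and a share of at least 0.5 of a type's list, had a log2 fold of 1 or more in at least 5% of nuclei, and where no second of the 6 types named here reached 0.8 of the leading share. Erythroid markers were not in that contest: 4 of 5 were higher in 1 immune cluster of 74 nuclei, and 3 of 5 in the endothelial cluster. This rule was set after the clusters had been seen. Scrublet called 1 doublet in each library (0.0353% and 0.00818%) and so had not worked, and none were removed. In an alternative the top-scoring 170 and 734 nuclei were left out.

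UMI counts were summed per library and cell type (12 sums). edgeR 4.0.16 (quasi-likelihood test, TMM, filterByExpr, Benjamini-Hochberg over all genes tested) compared sums with library as a block, since the sums of a library come from 1 mouse. The deviations of same-numbered sums correlated at 0.155 to 0.452 over 15 pairs of types and 13883 genes. For shares, nuclei were thinned to 1000 UMIs, and exact Clopper-Pearson 95% intervals cover counting error only. All members are named, with, per list, at most 3 called genes in each direction in adipocytes (2 for subclusters), and the 3 most alike genes per member with a mean above 20 CPM. Some genes that this rule selects are not reported here.

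Alternatives were DESeq2 1.42.0, no filter on low counts, no block, a mitochondrial limit of 5%, 15 components, no integration, resolution 0.3, thinned sums, each library alone, and cell types without mixed subclusters. A further 4 were added after seeing the data: no TMM factors, no subclusters rich in adipocyte markers, no immune cluster with erythroid markers, and neither this nor the endothelial cluster. For the 3 subclusters, DESeq2, no block and thinned sums were added as well.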

Additional observations from a re-analysis of the deposited data

How the results depend on the processing

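The 7 members higher in adipocytes numbered 6 or 7, and pathway genes higher there 44 to 70 against 60, under the alternatives run. The share of all genes called higher there ran from 11.9 to 33.7%, against 31.0%. With DESeq2, and without TMM factors, 2 members were lower in adipocytes against 1, beside 35.9% and 40.4% of all genes against 30.1%. The log2 fold change of Irs2 was then -0.18 and -0.38 against 0.099. With a mitochondrial limit of 5%, 2 members were called in mesothelial and 8 in endothelial nuclei, beside 8.92% and 41.6% of all genes. Endothelial calls numbered 6 without subclusters with another type's markers and 5 without those rich in adipocyte markers, beside 16% and 17.5% of all genes; in the latter 13 neighbouring pairs passed, beside 13.1% over all genes. Without the immune cluster with erythroid markers, 3 members were called in immune nuclei, as with it, beside 24.1% of all genes against 24.7%. With the endothelial cluster left out as well, 7 were called in mesothelial and 5 in immune nuclei (beside 20.6% and 26.3% of all genes), Irs2 in adipocytes stood at -0.16, and 5 of 32 neighbouring pairs passed (12.9% over all genes). After thinning, 0 members were higher in subcluster 2 (10 tested by edgeR), beside 3.14% of all genes higher and 3.2% lower, and Irs2 there stood at 0.086. With DESeq2, 7 other pathway genes were higher and 3 lower in subcluster 2, beside 2.14% and 1.53% of all genes. Of the 2, 4 and 2 members called in 3 subclusters, thinning left 1, 2 and 1, beside 6.78, 4.49 and 7.85% of all genes, and DESeq2 1 in subcluster 3, beside 5.7%. The cause was not tested. Of the counts of calls, and the members' log2 fold changes in adipocytes, in subcluster 2 and, where called, in the 3 subclusters, 431 values under the alternatives stayed on the same side of the test or within the spread, 33 moved, 4 turned in sign, 2 gained and 17 lost a call; the members' fold changes in the other cell types and single other pathway genes are not among them.

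Without the replicate block, members called numbered 0 in FAPs, 0 in mesothelial, 0 in endothelial, 1 in smooth muscle and 1 in immune nuclei, beside 8.07%, 9.56%, 5.58%, 4.32% and 14.3% of all genes. In subcluster 2, 0 members were then higher, and 1 other pathway gene was higher and 1 lower, beside 0.183% and 0.0702% of all genes. In the 3 subclusters 0, 0 and 1 members were called. In adipocytes the counts without the block were 7 higher and 1 lower, as with it. Of all genes 21.1% were then called higher and 23.3% lower, against 31.0% and 30.1% with the block. Each library alone gives values without a test: Foxo1 was 0.27 in replicate 1 and 1.22 in replicate 2. With the 5% limit, and without mixed subclusters, 33 of the 50 neighbouring pairs could be tested, of which 6 and 8 passed, beside 16.2% and 14.8% over all genes. Smooth muscle sums rest on few nuclei, 24 in replicate 1.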
